A study of Mus musculus with 12 samples.

Results

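The lysosome was followed through 36 genes of its degradative enzymes, its membrane proteins and channels, and the vacuolar proton pump, in bone marrow-derived macrophages that carried or lacked the orphan nuclear receptor ERRα. A gene was a member when the transcript accession of a non-control array probe belonged to a listed lysosomal gene, a choice that used no measured level. Of the 36 genes, 35 had a probe. Cd68, a macrophage sialomucin, was the exception: its accessions in the gene table matched no probe, so it is not analysed here. These 35 genes were among 13113 genes tested and 20887 genes named on the array. They had 42 probes, and all 42 were well above background on the 3 arrays of at least 1 group. On the whole set of 12 arrays 41 of the 42 were, the exception being the probe of Tpcn2.

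The macrophages were differentiated from marrow of male C57BL6 mice aged 6 to 8 weeks over 5 to 7 days with macrophage colony-stimulating factor (M-CSF). The 4 combinations of genotype and treatment were hybridised to 1-colour Agilent arrays, with 3 arrays in each: ERRα-/- cells given lipopolysaccharide (LPS) at 100 ng/mL, ERRα-/- cells given PBS, ERRα+/+ cells given LPS, and ERRα+/+ cells given PBS. The sources used here do not state how long LPS was given, nor how the Esrra allele that encodes ERRα was disrupted. Nothing in the labels says whether the 3 arrays of a group came from separate mice, so the p-values measure the spread between these arrays, which may be technical.

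Lysosomes take up material from endosomes, phagosomes and autophagosomes and break it down with acid hydrolases, which work only at low pH. The V-ATPase, a rotary pump with a membrane-embedded V0 sector and a cytosolic V1 sector that burns ATP, brings protons into the lumen. Cation channels of the membrane let calcium and sodium out. In macrophages the same organelle kills microbes and cuts antigens, and LPS, a wall component of Gram-negative bacteria read by TLR4, is known to reset the cell's expression programme widely. ERRα is best known as a regulator of mitochondrial energy genes.

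Each value below is a log2 level, the log2 of the probe's processed signal minus that of the array's 75th percentile, and arrays are listed in the order of replicates 1, 2 and 3. Differences are log2 differences ± the standard error (SE) of the model, with n = 3 arrays per group. A gene was called when its adjusted p from limma (Benjamini-Hochberg over all 13113 genes) was under 0.05. The log2 level of Esrra itself was 4.40, 3.92 and 3.83 in ERRα-/- LPS cells and 2.48, 0.25 and 0.15 in ERRα-/- PBS cells, against 5.87, 6.25 and 6.36 in ERRα+/+ LPS cells and 4.54, 4.39 and 4.68 in ERRα+/+ PBS cells. The groups of each treatment did not overlap between genotypes. The difference between ERRα-/- and ERRα+/+ cells was -3.58 ± 0.51 under PBS (adjusted p = 0.0227) and -2.11 ± 0.51 under LPS (adjusted p = 0.202). Where the Esrra probe lies relative to the disrupted part of the gene is not known here, so it checks the labels as an overall level only. All 6 LPS activation genes, among them Il6 and Tnf, were called higher with LPS in both genotypes.

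With LPS more of the lysosomal genes were called lower than higher, in both genotypes. In ERRα-/- cells 14 of 35 members were called (40%), against 50.4% of all genes. The higher ones numbered 5 (14.3%), against 25.1% of all genes, and the lower ones 9 (25.7%), against 25.3%. In ERRα+/+ cells 17 of 35 were called (48.6%), against 45.9% of all genes. There the higher ones numbered 5 (14.3%), against 22.2%, and the lower ones 12 (34.3%), against 23.7%. The total share of called members was thus near or below that of all genes. In ERRα-/- cells the share called lower was also near that of all genes, and the share called higher was below it. There lower calls no longer outnumbered higher ones without ERRα-/- LPS replicate 1 (8 higher and 8 lower, against 28.4% and 26.7% of all genes). The same held without ERRα-/- LPS replicate 3 (4 and 4, against 19.5% and 20.7%) or ERRα-/- PBS replicate 1 (5 and 5, against 22.8% and 24.3%). The median difference of the 35 members was -0.10 in ERRα-/- cells and -0.32 in ERRα+/+ cells, where the medians over all genes were 0.052 and 0.017. In bulk RNA, fewer cells of a type and less RNA per cell cannot be told apart.

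The same 9 members were called lower in both genotypes: the channel genes Tpcn1, Tpcn2 and Mcoln1, the pump gene Atp6v0a1, the glycosidase genes Gaa, Gusb and Neu1, and the lipid genes Lipa and Npc1. Called higher in both were Ctsc, Ctsz, Atp6v1e1 and Atp6v0b. Atp6v1h passed in ERRα-/- cells alone, and Atp6v1a, Ctsd, Ctsh and Gla in ERRα+/+ cells alone, although the difference between the genotypes' responses was called for none of them (adjusted p = 1.00 for each). The 17 members called in neither genotype were Lamp1, Lamp2, Laptm5, Ctsa, Ctsb, Ctsl, Hexa, Npc2, Psap, Atp6v0c, Atp6v0d1, Atp6ap1, Atp6v1b2, Atp6v1c1, Atp6v1d, Atp6v1f and Atp6v1g1. The sign of the difference was the same in both genotypes for 31 of the 35. Across the members the LPS differences of the 2 genotypes had a Pearson r of 0.971 and a Spearman rho of 0.959 (35 genes of the same 12 arrays, not independent replicates), beside 0.955 and 0.937 across all genes. The LPS and PBS arrays did not overlap for 21 members in ERRα-/- cells, against 59.6% of all genes, and for 18 in ERRα+/+ cells, against 54%.

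**Figure D1:**
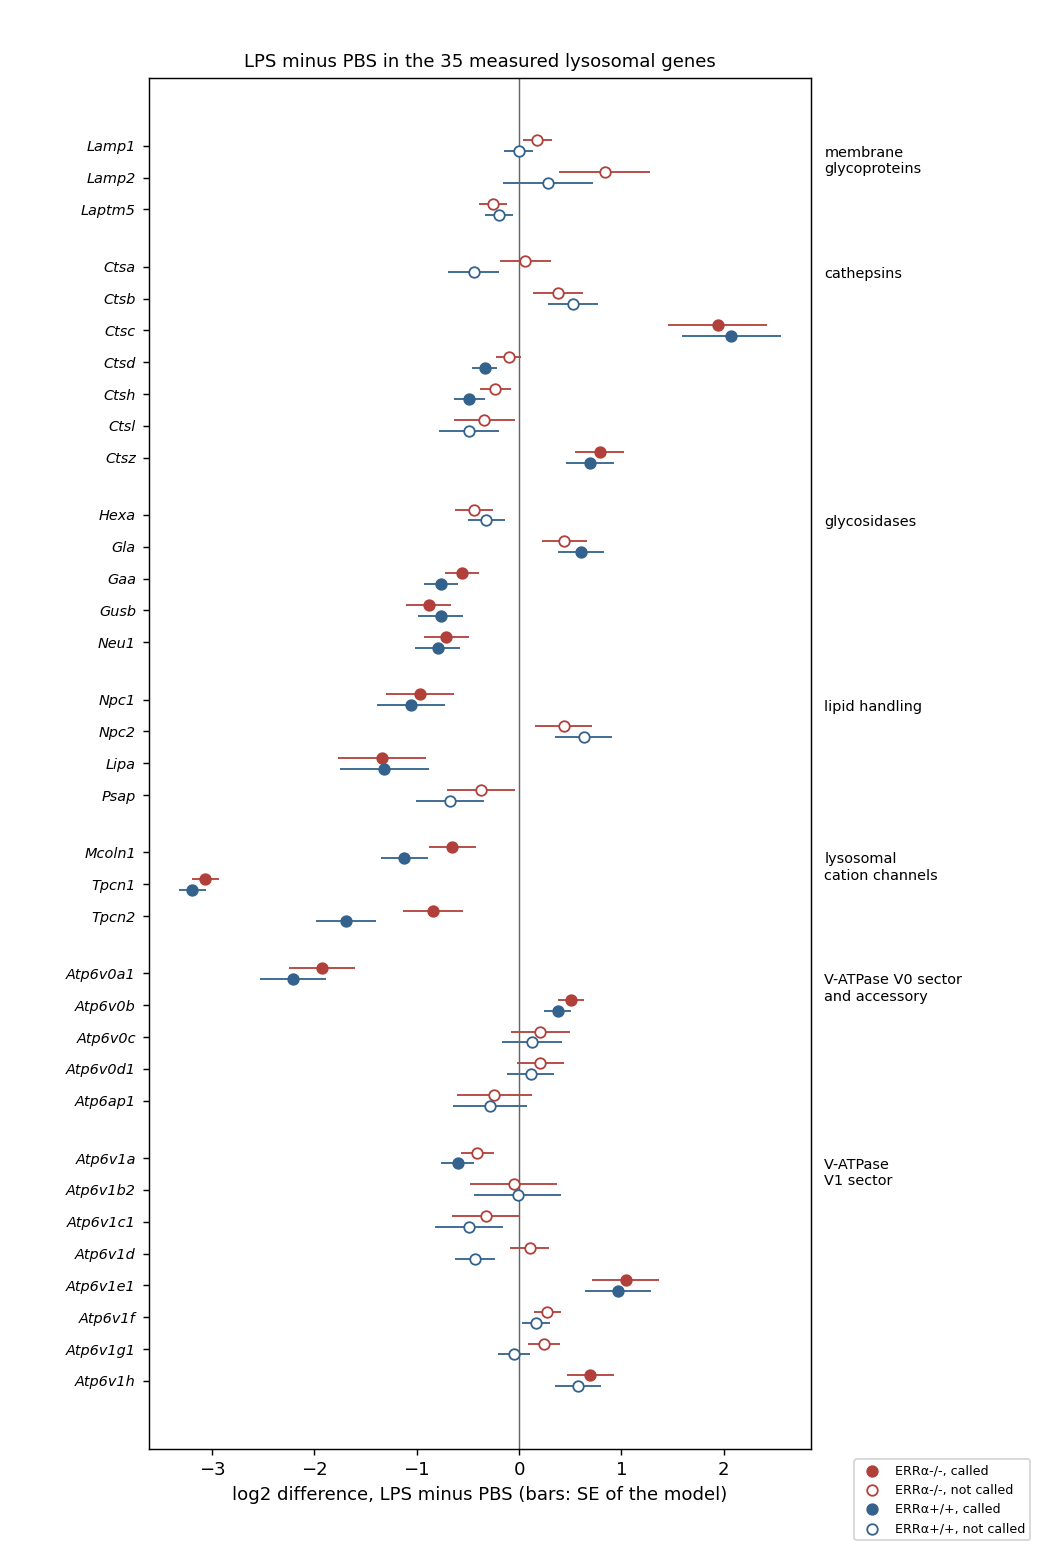
The log2 difference between LPS and PBS (x axis; bars, SE of the model) of each of the 35 measured lysosomal genes, by role, in ERRα-/- cells (red) and ERRα+/+ cells (blue), 3 arrays per group; filled points passed an adjusted p of 0.05. The points of the channel genes lie left of 0 in both genotypes, Tpcn1 at -3.07 and -3.19, while Ctsc lies at 1.94 and 2.07; Atp6v0b, drawn right of 0, changed sign under quantile normalization.

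How many members stood on each side depended on how arrays were scaled to each other. Quantile normalization, which shifted the median difference of all genes by -0.203 in ERRα-/- cells and -0.160 in ERRα+/+ cells, left 1 member higher, against 20% of genes, and 14 lower, against 30.1%, in ERRα-/- cells. In ERRα+/+ cells it left 1 higher, against 18.4%, and 16 lower, against 28.4%. The 1 member still called higher was Ctsc. Newly called lower in ERRα-/- cells were Atp6v1a (-0.95), Hexa (-0.92), Ctsh (-0.72), Ctsd (-0.59) and Laptm5. In ERRα+/+ cells they were Atp6v1d (-0.87), Hexa (-0.74), Atp6v1g1 (-0.53) and Laptm5. Atp6v1a, Ctsd and Ctsh, called in ERRα+/+ cells alone above, were thus called lower in both genotypes under this scaling. Testing all 20887 named genes with no filter on dim probes called 9 members in ERRα-/- cells, against 27.7% of genes, and 10 in ERRα+/+ cells, against 24.8%. It ended the calls of Atp6v1h, Gaa, Mcoln1, Npc1 and Tpcn2 in ERRα-/- cells (adjusted p 0.0505 to 0.0779), and of Atp6v0b, Atp6v1e1, Ctsd, Ctsh, Ctsz, Gla and Lipa in ERRα+/+ cells (adjusted p 0.0548 to 0.138). Background correction by normexp ended the calls of Atp6v0b (adjusted p = 0.0510), Ctsz (0.0774) and Tpcn2 (0.776) in ERRα-/- cells, and of Atp6v0b (0.0898) and Atp6v1e1 (0.0502) in ERRα+/+ cells.

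The arrays lay on 2 slides, replicate 1 of every group on the first and replicates 2 and 3 on the second. On slide 1 the log2 level was higher in all 4 groups for 13 members, among them Lipa (by 0.88 on average), Atp6v1b2 and Atp6ap1 (0.82 each), and lower in all 4 for Ctsc (-1.06), Lamp2 (-0.96), Tpcn2 (-0.46) and Lamp1 (-0.18). Over all genes, 2624 were higher and 3359 lower on slide 1 in all 4 groups. The members' median absolute LPS difference was 0.375 on slide 1 and 0.520 on slide 2 in ERRα-/- cells, and 0.333 and 0.565 in ERRα+/+ cells. Over all genes it was also smaller on slide 1, at 0.524 and 0.772 in ERRα-/- cells and 0.456 and 0.739 in ERRα+/+ cells. With slide as a block 20 members were called in ERRα-/- cells, against 65.5% of genes, and 22 in ERRα+/+ cells, against 62.7%. On slide 2 alone, with 2 arrays per group, 27 were called in ERRα-/- cells, against 73.7%, and 25 in ERRα+/+ cells, against 72.3%. The replicate block gave 19 in ERRα-/- cells, against 63.7%, and 22 in ERRα+/+ cells, against 60.5%. Slide 1 holds 1 array per group, which gives a value with no test.

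**Figure D2:**
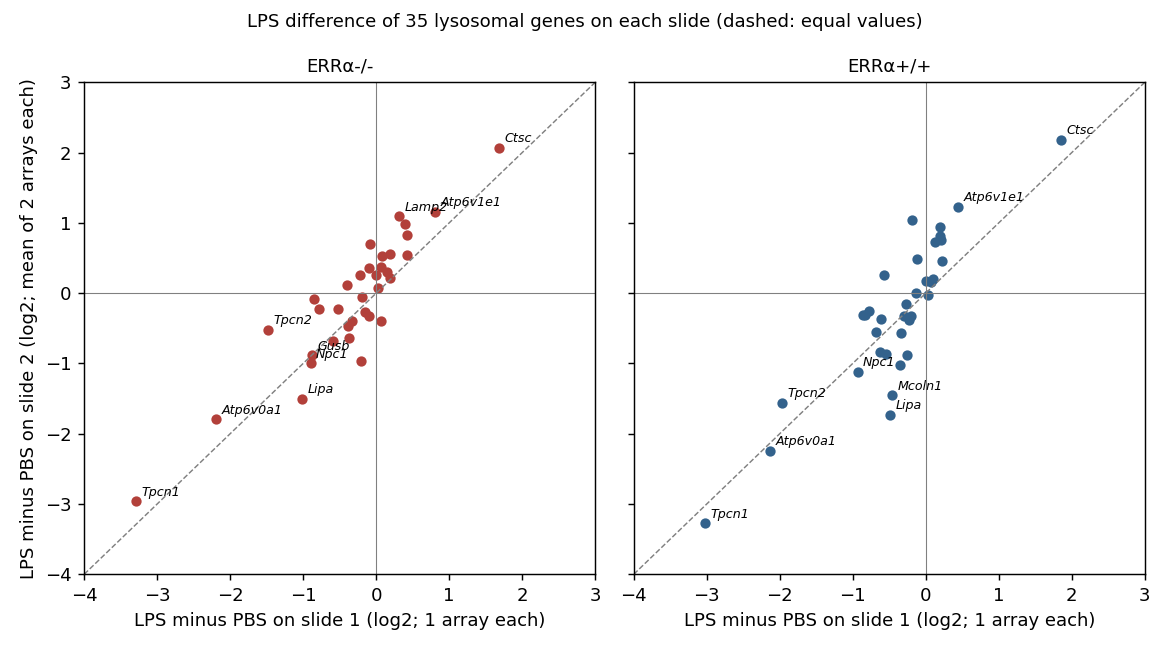
The log2 difference between LPS and PBS of the 35 measured lysosomal genes on slide 1 (x axis, 1 array per group) and on slide 2 (y axis, mean of 2 arrays per group), for ERRα-/- cells (left) and ERRα+/+ cells (right); the dashed line marks equal values. Tpcn1, Atp6v0a1 and Ctsc keep their side on both slides, and the median absolute difference is larger on slide 2 (0.520 in ERRα-/- cells and 0.565 in ERRα+/+ cells) than on slide 1 (0.375 and 0.333).

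Many lysosomal genes of mammals carry in their promoters the palindrome TCACGTGA, a longer form of the E-box CACGTG, which the transcription factor TFEB and its relatives bind. RefSeq promoter windows of the GRCm38.p6 build, 300 bases from 250 before to 50 after a start site, were matched by symbol to 27 of the 35 measured members, which had 31 windows. CACGTG stood in 10 of the 31 windows (32.3%), against 7.15% of all 32851 windows. TCACGTGA, every copy of which holds CACGTG, stood in 6 windows (19.4%), against 0.974% of all. Both motifs read the same on both strands. TNAAGGTCA, an element of the kind that ERR receptors bind, was searched on both strands and stood in 1 window (3.23%), against 1.28% of all. A match is a run of letters and no evidence of binding. The 6 windows with TCACGTGA are shown first, cut to 100 bases and 5′ to 3′ on the gene's strand with the palindrome in capitals, because their genes differed in their LPS calls, and the Psap window last, because it alone held the ERR-type motif.
Mcoln1: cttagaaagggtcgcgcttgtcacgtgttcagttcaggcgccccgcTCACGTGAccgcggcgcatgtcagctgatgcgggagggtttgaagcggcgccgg
Atp6v1a: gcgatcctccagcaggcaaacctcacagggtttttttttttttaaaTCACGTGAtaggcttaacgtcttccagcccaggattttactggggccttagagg
Ctsd: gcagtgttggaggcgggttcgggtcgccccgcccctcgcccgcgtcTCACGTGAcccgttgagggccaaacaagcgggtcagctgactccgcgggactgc
Gla: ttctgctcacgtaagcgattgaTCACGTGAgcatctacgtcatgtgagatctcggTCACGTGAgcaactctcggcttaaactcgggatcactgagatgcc
Ctsa: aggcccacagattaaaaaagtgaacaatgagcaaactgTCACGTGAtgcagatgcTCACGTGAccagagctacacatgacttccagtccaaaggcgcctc
Atp6v0d1: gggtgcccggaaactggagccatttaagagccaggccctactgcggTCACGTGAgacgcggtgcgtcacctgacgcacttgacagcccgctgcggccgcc
Psap: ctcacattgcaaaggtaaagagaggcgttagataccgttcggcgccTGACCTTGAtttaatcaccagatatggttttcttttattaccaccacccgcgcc
The Mcoln1 stretch lies at chr8:3500427-3500526 (plus strand), with the palindrome starting 46 bases upstream of the start site. The Atp6v1a stretch lies at chr16:44139338-44139437 (minus strand) (132 bases upstream) and the Ctsd stretch at chr7:142387873-142387972 (minus strand) (99 bases upstream). The Gla stretch at chrX:134601156-134601255 (minus strand) holds 2 copies, 228 and 195 bases upstream. The Ctsa stretch at chr2:164833722-164833821 (plus strand) also holds 2, 13 bases upstream and 5 bases past the start. The Atp6v0d1 stretch lies at chr8:105566015-105566114 (minus strand), with the palindrome 4 bases upstream, and the Psap stretch at chr10:60277433-60277532 (plus strand), where the capitals, 149 bases upstream, read as the ERR-type motif on the opposite strand. With LPS, Mcoln1 was called lower in both genotypes, Atp6v1a and Ctsd lower and Gla higher in ERRα+/+ cells, and Ctsa, Atp6v0d1 and Psap in neither. At their tested probes the 6 genes with the same palindrome thus had LPS differences of either sign, and of them only Gla was called higher. Its call ended under quantile normalization (adjusted p = 0.133). The calls of Gla and Ctsd, and that of Mcoln1 in ERRα-/- cells, also ended with some arrays left out. The dimmer probe of Ctsa was lower with LPS, at -0.75 in ERRα-/- cells and -0.99 in ERRα+/+ cells.

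All 3 cation channel genes fell with LPS in both genotypes, and Tpcn1 fell furthest of all members. Of all genes 25.3% were called lower in ERRα-/- cells and 23.7% in ERRα+/+ cells. Tpcn1 and Tpcn2 encode the TPC channels, which release calcium and sodium from endosomes and lysosomes, and Mcoln1 encodes TRPML1, a calcium channel opened by the lipid PI(3,5)P2. Tpcn1 had log2 levels of 1.92, 2.18 and 2.11 in ERRα-/- LPS cells against 5.20, 5.13 and 5.08 in ERRα-/- PBS cells, and 2.13, 1.93 and 1.97 in ERRα+/+ LPS cells against 5.16, 5.30 and 5.16 in ERRα+/+ PBS cells. All LPS arrays lay far below all PBS arrays, and the arrays of a group lay close together. The difference was -3.07 ± 0.13 in ERRα-/- cells (8.38-fold lower, adjusted p = 5.41e-07) and -3.19 ± 0.13 in ERRα+/+ cells (9.15-fold lower, adjusted p = 3.03e-07).

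Mcoln1 had log2 levels of 4.01, 3.69 and 3.96 in ERRα-/- LPS cells against 4.60, 4.35 and 4.65 in ERRα-/- PBS cells, and 3.90, 3.03 and 3.65 in ERRα+/+ LPS cells against 4.36, 4.84 and 4.75 in ERRα+/+ PBS cells. Each LPS array was below every PBS array of its genotype. The difference was -0.65 ± 0.23 in ERRα-/- cells (adjusted p = 0.0364) and -1.12 ± 0.23 in ERRα+/+ cells (adjusted p = 0.00283). Tpcn2 was near the detection limit, with log2 levels of -4.33, -3.38 and -3.34 in ERRα-/- LPS cells against -2.85, -2.71 and -2.97 in ERRα-/- PBS cells, and -4.16, -3.70 and -3.33 in ERRα+/+ LPS cells against -2.20, -1.74 and -2.18 in ERRα+/+ PBS cells. Its probe was well above background on 2 of the 3 LPS arrays in each genotype and on all PBS arrays. The fall was -0.84 ± 0.29 in ERRα-/- cells (adjusted p = 0.0334) and -1.69 ± 0.29 in ERRα+/+ cells (adjusted p = 0.00104). In ERRα-/- cells the Mcoln1 call ended without ERRα-/- LPS replicate 2 or 3 or ERRα-/- PBS replicate 1 or 3 (adjusted p 0.0685 to 0.124) and the Tpcn2 call without ERRα-/- LPS replicate 1 or ERRα-/- PBS replicate 1, 2 or 3 (adjusted p 0.0583 to 0.0979). After normexp the Tpcn2 difference there was -0.083.

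**Figure D3:**
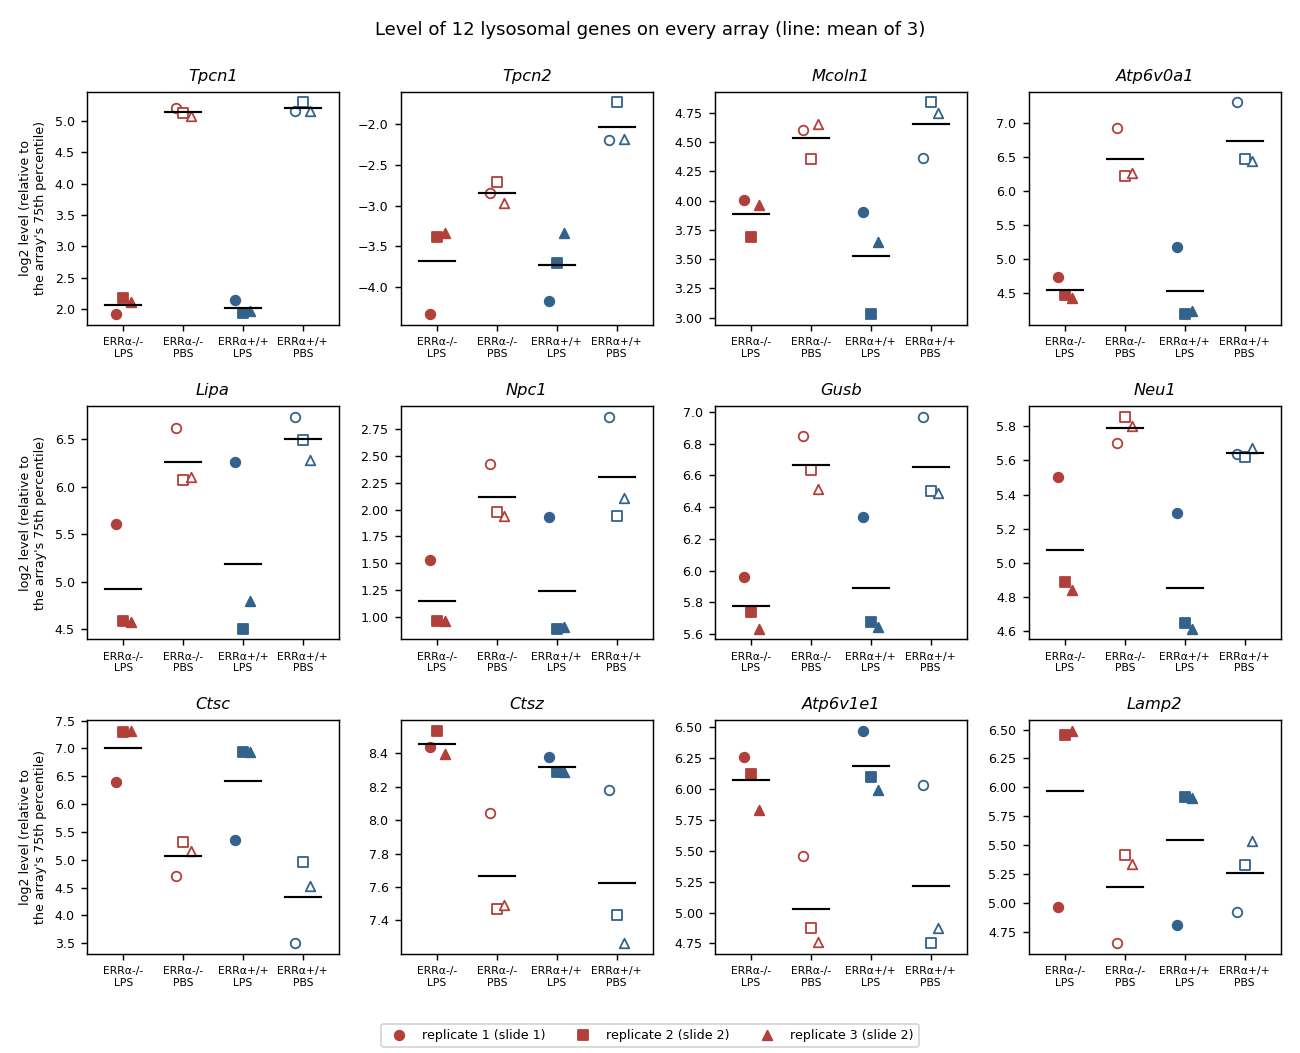
The log2 level relative to the array's 75th percentile (y axis, scaled to each gene) of 12 lysosomal genes on every array of the 4 groups (x axis), with ERRα-/- cells in red and ERRα+/+ cells in blue, LPS filled and PBS open, replicates by shape and the group mean as a line. LPS arrays lie below the PBS arrays of their genotype for Tpcn1, Tpcn2, Mcoln1, Atp6v0a1, Lipa, Npc1, Gusb and Neu1 and above them for Ctsc and Ctsz, and replicate 1, on slide 1, stands apart within groups for Lipa, Npc1, Ctsc and Lamp2.

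Subunits of the V0 sector moved both ways. Atp6v0a1, an isoform of the large membrane subunit that steers the pump to its compartment, fell in both genotypes, while Atp6v0b, a subunit of the proton-carrying ring, was called higher, though not under quantile normalization. Of the 5 genes of V0 and its accessory protein, 1 was higher and 1 lower in each genotype. Of all genes 25.1% were higher and 25.3% lower in ERRα-/- cells, and 22.2% and 23.7% in ERRα+/+ cells. Atp6v0a1 had log2 levels of 4.72, 4.47 and 4.43 in ERRα-/- LPS cells against 6.92, 6.22 and 6.26 in ERRα-/- PBS cells, and 5.17, 4.18 and 4.23 in ERRα+/+ LPS cells against 7.30, 6.47 and 6.43 in ERRα+/+ PBS cells. No LPS array reached a PBS array, and the difference was -1.93 ± 0.32 in ERRα-/- cells (3.80-fold lower, adjusted p = 0.000821) and -2.21 ± 0.32 in ERRα+/+ cells (4.61-fold lower, adjusted p = 0.000407). Atp6v0b had log2 levels of 6.12, 6.24 and 6.14 in ERRα-/- LPS cells against 5.70, 5.59 and 5.69 in ERRα-/- PBS cells, and 6.20, 6.13 and 6.15 in ERRα+/+ LPS cells against 5.98, 5.71 and 5.66 in ERRα+/+ PBS cells. Its groups did not overlap, and the difference was 0.51 ± 0.13 in ERRα-/- cells (adjusted p = 0.00857) and 0.38 ± 0.13 in ERRα+/+ cells (adjusted p = 0.0378). Under quantile normalization its sign turned, to -0.050 in ERRα-/- cells (adjusted p = 0.829) and -0.084 in ERRα+/+ cells (adjusted p = 0.710). In ERRα+/+ cells its call also ended without ERRα-/- LPS replicate 2 or 3, ERRα-/- PBS replicate 2 or 3, ERRα+/+ LPS replicate 1, 2 or 3 or ERRα+/+ PBS replicate 2 or 3 (adjusted p 0.0543 to 0.127). The other 3 were not called: Atp6v0c, the ring's main proton-carrying subunit, at 0.21 in ERRα-/- cells and 0.13 in ERRα+/+ cells; Atp6v0d1, the ring's stalk adapter, at 0.21 and 0.11; and the accessory subunit Atp6ap1 at -0.24 and -0.29.

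In the V1 sector Atp6v1e1, part of a peripheral stalk, stood out as higher, and most of the 8 genes were not called. Atp6v1a encodes the catalytic ATP-binding subunit and Atp6v1b2 its partner in the head. Of the 8 genes, 2 were called higher and none lower in ERRα-/- cells, against 25.1% and 25.3% of all genes. In ERRα+/+ cells 1 was called higher and 1 lower, against 22.2% and 23.7%. Atp6v1e1 had log2 levels of 6.26, 6.12 and 5.83 in ERRα-/- LPS cells against 5.45, 4.88 and 4.76 in ERRα-/- PBS cells, and 6.47, 6.09 and 5.99 in ERRα+/+ LPS cells against 6.03, 4.75 and 4.87 in ERRα+/+ PBS cells. In ERRα+/+ cells PBS replicate 1 reached into the LPS range, and in ERRα-/- cells the groups did not overlap. The difference was 1.04 ± 0.33 in ERRα-/- cells (2.06-fold higher, adjusted p = 0.0218) and 0.97 ± 0.33 in ERRα+/+ cells (1.95-fold higher, adjusted p = 0.0328). Quantile normalization ended its call in both genotypes (0.50 in ERRα-/- cells, adjusted p = 0.304, and 0.51 in ERRα+/+ cells, adjusted p = 0.299). The ERRα-/- call was also lost without ERRα-/- LPS replicate 1 or 2 or ERRα-/- PBS replicate 2 or 3 (adjusted p 0.0543 to 0.0784), and the ERRα+/+ call without ERRα+/+ LPS replicate 1, 2 or 3 or ERRα+/+ PBS replicate 2 or 3 (adjusted p 0.0541 to 0.122).

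Atp6v1h, the subunit that gates V1 activity, had log2 levels of 2.36, 2.53 and 2.76 in ERRα-/- LPS cells against 1.93, 1.88 and 1.74 in ERRα-/- PBS cells, and 2.72, 2.43 and 2.46 in ERRα+/+ LPS cells against 2.51, 1.61 and 1.75 in ERRα+/+ PBS cells. It was 0.70 ± 0.23 in ERRα-/- cells (adjusted p = 0.0254) and 0.58 ± 0.23 in ERRα+/+ cells, where the call missed (adjusted p = 0.0584) and PBS replicate 1 lay within the LPS range. The replicate block called it in ERRα+/+ cells too (adjusted p = 0.0421). In ERRα-/- cells the call was lost without ERRα-/- LPS replicate 2 or 3 or ERRα-/- PBS replicate 2 or 3 (adjusted p 0.0583 to 0.0940) and under quantile normalization (adjusted p = 0.0700). Atp6v1a had log2 levels of 5.70, 6.12 and 6.07 in ERRα-/- LPS cells against 6.49, 6.35 and 6.28 in ERRα-/- PBS cells, and 6.06, 5.90 and 5.87 in ERRα+/+ LPS cells against 6.75, 6.48 and 6.40 in ERRα+/+ PBS cells. LPS arrays were the lower ones in both genotypes. The difference in ERRα-/- cells, -0.41 ± 0.16, missed the threshold (adjusted p = 0.0550) but passed with the replicate block (adjusted p = 0.0424). It also passed there under quantile normalization (-0.95, adjusted p = 0.00135). In ERRα+/+ cells it was -0.60 ± 0.16 (adjusted p = 0.0111). Its second probe gave -0.48 in ERRα-/- cells and -0.77 in ERRα+/+ cells. The remaining V1 genes were not called: Atp6v1b2 was at -0.053 in ERRα-/- cells and -0.014 in ERRα+/+ cells, Atp6v1c1 at -0.32 and -0.49, Atp6v1d at 0.10 and -0.43, Atp6v1f at 0.28 and 0.16, and Atp6v1g1 at 0.24 and -0.047. With the replicate block Atp6v1c1, a stalk subunit, was called lower in ERRα+/+ cells (adjusted p = 0.0482). Under quantile normalization Atp6v1d and Atp6v1g1 were called lower there (adjusted p = 0.00285 and 0.00605).

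Among the cathepsins, the lysosomal proteases, Ctsc and Ctsz rose with LPS in both genotypes, and Ctsd and Ctsh fell in ERRα+/+ cells. Ctsc encodes dipeptidyl peptidase I, which activates the serine proteases of immune granules, and Ctsz a carboxypeptidase of monocytes and macrophages. Ctsd is the main aspartic protease of lysosomes and Ctsh an aminopeptidase. Of the 7 genes, 2 were called higher and none lower in ERRα-/- cells, against 25.1% and 25.3% of all genes. In ERRα+/+ cells 2 were called higher and 2 lower, against 22.2% and 23.7%. Ctsc had log2 levels of 6.39, 7.29 and 7.31 in ERRα-/- LPS cells against 4.71, 5.32 and 5.15 in ERRα-/- PBS cells, and 5.36, 6.93 and 6.93 in ERRα+/+ LPS cells against 3.51, 4.96 and 4.54 in ERRα+/+ PBS cells. The LPS arrays were above the PBS arrays of their genotype on both slides. The difference was 1.94 ± 0.49 in ERRα-/- cells (3.84-fold, adjusted p = 0.00726) and 2.07 ± 0.49 in ERRα+/+ cells (4.21-fold, adjusted p = 0.00574). Ctsz had log2 levels of 8.44, 8.53 and 8.40 in ERRα-/- LPS cells against 8.04, 7.47 and 7.49 in ERRα-/- PBS cells, and 8.38, 8.29 and 8.29 in ERRα+/+ LPS cells against 8.18, 7.43 and 7.27 in ERRα+/+ PBS cells. Its groups did not overlap, although PBS replicate 1 was the highest PBS array in each genotype. The difference was 0.79 ± 0.24 in ERRα-/- cells (adjusted p = 0.0184) and 0.69 ± 0.24 in ERRα+/+ cells (adjusted p = 0.0351). The Ctsz calls ended under quantile normalization (adjusted p = 0.344 in ERRα-/- cells and 0.366 in ERRα+/+ cells). They also ended without ERRα-/- LPS replicate 2 or ERRα-/- PBS replicate 2 or 3 (adjusted p 0.0591 to 0.0701) in ERRα-/- cells, and without ERRα+/+ LPS replicate 1, 2 or 3 or ERRα+/+ PBS replicate 2 or 3 (adjusted p 0.0693 to 0.133) in ERRα+/+ cells.

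Ctsh had log2 levels of 7.65, 7.47 and 7.34 in ERRα-/- LPS cells against 7.81, 7.69 and 7.66 in ERRα-/- PBS cells, and 7.23, 7.36 and 7.30 in ERRα+/+ LPS cells against 7.57, 7.78 and 8.00 in ERRα+/+ PBS cells. All LPS arrays were below all PBS arrays of their genotype. The difference was -0.23 ± 0.15 in ERRα-/- cells (adjusted p = 0.222, not called) and -0.49 ± 0.15 in ERRα+/+ cells (adjusted p = 0.0217). Ctsd had log2 levels of 9.04, 9.24 and 9.14 in ERRα-/- LPS cells against 9.23, 9.20 and 9.30 in ERRα-/- PBS cells, and 9.31, 9.13 and 9.19 in ERRα+/+ LPS cells against 9.53, 9.58 and 9.52 in ERRα+/+ PBS cells. The ERRα+/+ groups did not overlap, and the ERRα-/- groups did. The difference was -0.10 ± 0.12 in ERRα-/- cells (adjusted p = 0.517) and -0.33 ± 0.12 in ERRα+/+ cells (adjusted p = 0.0452). Under quantile normalization Ctsd and Ctsh were called lower in ERRα-/- cells too (adjusted p = 0.0279 and 0.0170). In ERRα+/+ cells the Ctsh call ended without ERRα+/+ LPS replicate 3 or ERRα+/+ PBS replicate 2 or 3 (adjusted p 0.0527 to 0.0879), and the Ctsd call without ERRα-/- LPS replicate 2 or 3, ERRα-/- PBS replicate 2 or 3, ERRα+/+ LPS replicate 2 or 3 or ERRα+/+ PBS replicate 1, 2 or 3 (adjusted p 0.0611 to 0.146). The mean of both Ctsd probes gave -0.51 there (adjusted p = 0.0866). Ctsa, the protective protein of neuraminidase, was not called at 0.062 in ERRα-/- cells and -0.44 in ERRα+/+ cells, and passed with the replicate block in ERRα+/+ cells (adjusted p = 0.0258). Its dimmer probe passed in both genotypes, at -0.75 in ERRα-/- cells (adjusted p = 0.00418 over all kept probes) and -0.99 in ERRα+/+ cells (adjusted p = 0.00103), so the probes of Ctsa disagreed. The mean of both was called lower in ERRα+/+ cells (-0.71, adjusted p = 0.0111). Ctsb and Ctsl, the cysteine proteases cathepsin B and cathepsin L, were not called, at 0.38 and -0.34 in ERRα-/- cells and 0.53 and -0.49 in ERRα+/+ cells.

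Of the 5 glycosidase genes 3 fell with LPS in both genotypes, against 25.3% of all genes in ERRα-/- cells and 23.7% in ERRα+/+ cells. The 3 were Gusb, the β-glucuronidase, Neu1, the lysosomal sialidase, and Gaa, the acid α-glucosidase that breaks down glycogen. Gla, the α-galactosidase A, was called higher in ERRα+/+ cells. Gusb, read from 10 spots of its probe per array, had log2 levels of 5.96, 5.74 and 5.64 in ERRα-/- LPS cells against 6.85, 6.63 and 6.51 in ERRα-/- PBS cells, and 6.34, 5.68 and 5.65 in ERRα+/+ LPS cells against 6.97, 6.50 and 6.49 in ERRα+/+ PBS cells. The groups did not overlap, and the difference was -0.88 ± 0.22 in ERRα-/- cells (adjusted p = 0.00704) and -0.76 ± 0.22 in ERRα+/+ cells (adjusted p = 0.0158). Neu1 had log2 levels of 5.50, 4.89 and 4.84 in ERRα-/- LPS cells against 5.70, 5.86 and 5.80 in ERRα-/- PBS cells, and 5.29, 4.65 and 4.61 in ERRα+/+ LPS cells against 5.64, 5.62 and 5.67 in ERRα+/+ PBS cells. LPS replicate 1 was the highest LPS array in both genotypes but stayed below the PBS arrays. The difference was -0.71 ± 0.22 in ERRα-/- cells (adjusted p = 0.0206) and -0.79 ± 0.22 in ERRα+/+ cells (adjusted p = 0.0135). The Neu1 call ended in ERRα-/- cells without ERRα-/- LPS replicate 2 or 3 or ERRα-/- PBS replicate 2 or 3 (adjusted p 0.0560 to 0.0821), and in ERRα+/+ cells without ERRα+/+ LPS replicate 2 or 3 (adjusted p 0.0581 to 0.0596). The Gusb call in ERRα+/+ cells ended without ERRα+/+ LPS replicate 2 or 3 or ERRα+/+ PBS replicate 1 (adjusted p 0.0529 to 0.0682).

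Gaa had log2 levels of 5.25, 5.16 and 5.05 in ERRα-/- LPS cells against 5.63, 5.74 and 5.76 in ERRα-/- PBS cells, and 5.43, 4.95 and 5.01 in ERRα+/+ LPS cells against 5.98, 6.03 and 5.66 in ERRα+/+ PBS cells. Its LPS arrays were all below its PBS arrays. The difference was -0.56 ± 0.17 in ERRα-/- cells (adjusted p = 0.0183) and -0.76 ± 0.17 in ERRα+/+ cells (adjusted p = 0.00414). A dimmer probe of Gaa disagreed, at 0.027 in ERRα-/- cells and -0.40 in ERRα+/+ cells, and the mean of both probes was called in neither (adjusted p = 0.464 in ERRα-/- cells and 0.116 in ERRα+/+ cells). The Gaa call in ERRα-/- cells also ended without ERRα-/- LPS replicate 2 or 3 or ERRα-/- PBS replicate 2 or 3 (adjusted p 0.0517 to 0.0674). Gla had log2 levels of 8.57, 9.21 and 9.23 in ERRα-/- LPS cells against 8.37, 8.60 and 8.71 in ERRα-/- PBS cells, and 8.52, 9.02 and 9.13 in ERRα+/+ LPS cells against 8.32, 8.35 and 8.17 in ERRα+/+ PBS cells. LPS and PBS arrays overlapped in ERRα-/- cells, where the difference was 0.44 ± 0.22 (adjusted p = 0.120, and 0.0394 with the replicate block). They did not in ERRα+/+ cells, where it was 0.60 ± 0.22 (adjusted p = 0.0444). In ERRα+/+ cells the Gla call ended under quantile normalization (adjusted p = 0.133) and without ERRα-/- LPS replicate 2, ERRα-/- PBS replicate 2 or 3, ERRα+/+ LPS replicate 2 or 3 or ERRα+/+ PBS replicate 1, 2 or 3 (adjusted p 0.0519 to 0.157). Hexa, a β-hexosaminidase subunit, was at -0.44 ± 0.18 in ERRα-/- cells (adjusted p = 0.0683) and -0.32 ± 0.18 in ERRα+/+ cells (adjusted p = 0.179). With the replicate block it was called lower in both (adjusted p = 0.0113 in ERRα-/- cells and 0.0450 in ERRα+/+ cells). Quantile normalization also called it lower in both (adjusted p = 0.0176 and 0.0465).

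Genes of lysosomal lipid handling split, with Lipa and Npc1 lower and Npc2 and Psap not called. Lipa encodes the acid lipase that frees cholesterol and fatty acids from lipoprotein lipids, and Npc1 the membrane protein that passes the cholesterol on, which it takes from Npc2. Lipa had log2 levels of 5.61, 4.59 and 4.58 in ERRα-/- LPS cells against 6.62, 6.07 and 6.10 in ERRα-/- PBS cells, and 6.26, 4.51 and 4.80 in ERRα+/+ LPS cells against 6.74, 6.49 and 6.28 in ERRα+/+ PBS cells. The groups did not overlap, and replicate 1 was the highest array of every group. The difference was -1.34 ± 0.43 in ERRα-/- cells (2.53-fold lower, adjusted p = 0.0247) and -1.32 ± 0.43 in ERRα+/+ cells (2.49-fold lower, adjusted p = 0.0289). On slide 2 alone the fall was -1.50 in ERRα-/- cells and -1.73 in ERRα+/+ cells, and on slide 1 -1.01 and -0.48. Npc1 had log2 levels of 1.53, 0.96 and 0.96 in ERRα-/- LPS cells against 2.43, 1.98 and 1.94 in ERRα-/- PBS cells, and 1.93, 0.90 and 0.91 in ERRα+/+ LPS cells against 2.86, 1.94 and 2.10 in ERRα+/+ PBS cells. Its LPS arrays were below the PBS arrays of their genotype. The difference was -0.97 ± 0.33 in ERRα-/- cells (adjusted p = 0.0326) and -1.06 ± 0.33 in ERRα+/+ cells (adjusted p = 0.0241).

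The Lipa call ended in ERRα-/- cells without ERRα-/- LPS replicate 2 or 3 or ERRα-/- PBS replicate 1 (adjusted p 0.0793 to 0.0863), and in ERRα+/+ cells without ERRα+/+ LPS replicate 2 or 3 or ERRα+/+ PBS replicate 1 or 2 (adjusted p 0.0679 to 0.117). The Npc1 call ended in ERRα-/- cells without ERRα-/- LPS replicate 2 or 3 or ERRα-/- PBS replicate 1, 2 or 3 (adjusted p 0.0538 to 0.103), and in ERRα+/+ cells without ERRα+/+ LPS replicate 2 or 3 or ERRα+/+ PBS replicate 1 (adjusted p 0.0839 to 0.0935). With the replicate block all 4 of these calls stood. Npc2, the soluble cholesterol carrier, was at 0.44 ± 0.28 in ERRα-/- cells (adjusted p = 0.217) and 0.63 ± 0.28 in ERRα+/+ cells (adjusted p = 0.0869), with slide 1 on the other side of 0 (-0.091 and -0.18). Psap, the precursor of the saposins that present lipids to hydrolases, was at -0.38 ± 0.33 in ERRα-/- cells (adjusted p = 0.373) and -0.67 ± 0.33 in ERRα+/+ cells (adjusted p = 0.122). The replicate block called Psap lower in both (adjusted p = 0.0420 in ERRα-/- cells and 0.00353 in ERRα+/+ cells).

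At their tested probes none of the 3 membrane glycoprotein genes was called (limma), and none had an unadjusted p under 0.05 for LPS. Lamp1 and Lamp2 encode the heavily glycosylated proteins that line the lysosomal membrane, and Laptm5 a membrane protein of blood cells that sends receptors to lysosomes. Lamp1 had log2 levels of 8.95, 9.34 and 9.24 in ERRα-/- LPS cells against 8.95, 8.99 and 9.06 in ERRα-/- PBS cells, and 8.98, 9.03 and 9.17 in ERRα+/+ LPS cells against 8.96, 9.11 and 9.14 in ERRα+/+ PBS cells. The groups overlapped in both genotypes, and the difference was 0.18 ± 0.14 in ERRα-/- cells (adjusted p = 0.325) and -0.0056 ± 0.14 in ERRα+/+ cells (adjusted p = 0.976). Laptm5 had log2 levels of 6.51, 6.48 and 6.50 in ERRα-/- LPS cells against 6.61, 6.83 and 6.81 in ERRα-/- PBS cells, and 6.50, 6.43 and 6.49 in ERRα+/+ LPS cells against 6.78, 6.45 and 6.79 in ERRα+/+ PBS cells. Its difference was -0.25 ± 0.14 in ERRα-/- cells, without overlap (adjusted p = 0.150), and -0.20 ± 0.14 in ERRα+/+ cells, with overlap (adjusted p = 0.264). Under quantile normalization the Laptm5 difference was called lower in both genotypes (adjusted p = 0.00496 in ERRα-/- cells and 0.0119 in ERRα+/+ cells). Lamp2 had log2 levels of 4.96, 6.46 and 6.49 in ERRα-/- LPS cells against 4.65, 5.41 and 5.33 in ERRα-/- PBS cells, and 4.81, 5.92 and 5.90 in ERRα+/+ LPS cells against 4.92, 5.33 and 5.53 in ERRα+/+ PBS cells. Replicate 1 was the lowest array of each group. The difference was 0.84 ± 0.44 in ERRα-/- cells (adjusted p = 0.139, and 0.00664 with the replicate block) and 0.28 ± 0.44 in ERRα+/+ cells (adjusted p = 0.627). The dimmer probe of Lamp2 stood at 0.50 in ERRα-/- cells (adjusted p = 0.0438 over all kept probes) and 0.23 in ERRα+/+ cells (adjusted p = 0.329).

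No lysosomal gene passed the threshold between ERRα-/- and ERRα+/+ cells. Of the 35 members 0 were called under PBS (limma, with 2 at an unadjusted p under 0.05), against 0.427% of all genes. Under LPS 0 were called (1 at an unadjusted p under 0.05), against 0.13%, and averaged over both treatments 0 (0 at an unadjusted p under 0.05), against 1.37%. The response to LPS differed between the genotypes for 0 members (0 at an unadjusted p under 0.05), against 0% of all genes. The smallest adjusted p of a member was 0.492 under PBS, 0.631 under LPS and 0.545 averaged. These misses do not show that the genotypes are alike. The median absolute difference was 0.145 under PBS and 0.102 under LPS, and the 95% confidence interval reached up to 1.08 log2 units to either side of the difference, the widest being that of Ctsc.

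**Figure D4:**
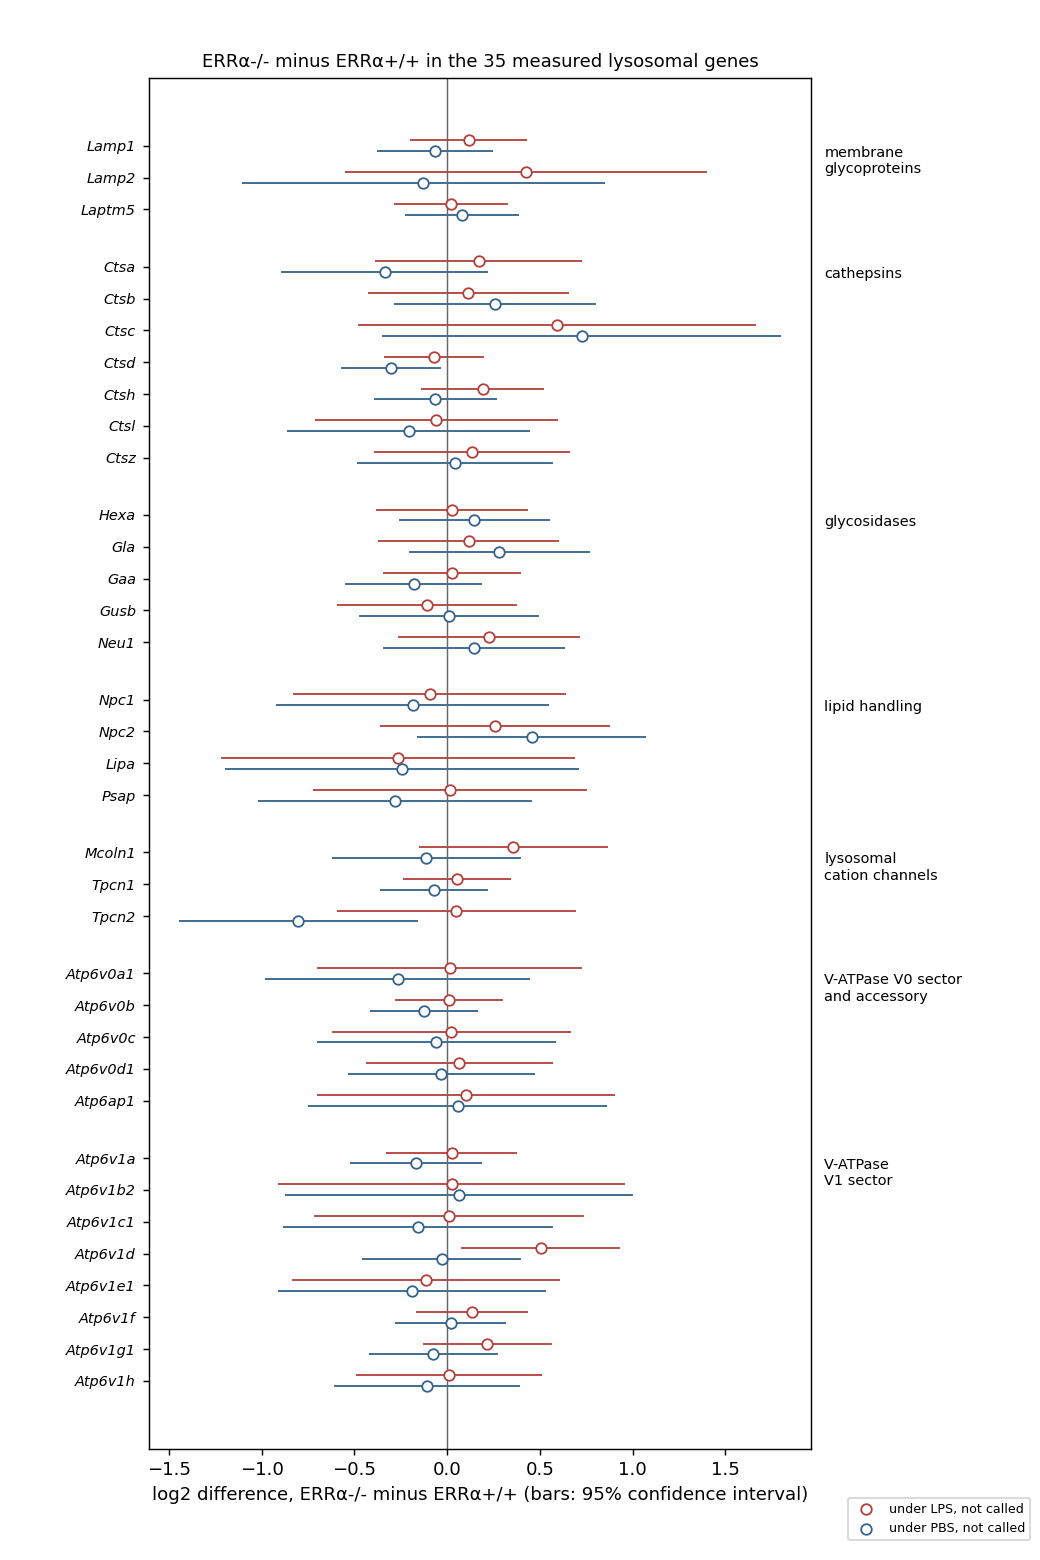
The log2 difference between ERRα-/- and ERRα+/+ cells (x axis; bars, 95% confidence interval of the model) of each of the 35 measured lysosomal genes, by role, under LPS (red) and under PBS (blue), 3 arrays per group. No point passed an adjusted p of 0.05, and the point farthest from 0 is Tpcn2 under PBS at -0.80.

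The smallest unadjusted p-values were those of Tpcn2 and Ctsd under PBS and of Atp6v1d under LPS, and Ctsc had the next largest difference under PBS after Tpcn2; these genes were picked after their values were seen. Tpcn2, with its log2 levels given above, was lower on every ERRα-/- PBS array than on every ERRα+/+ PBS array, with a difference of -0.80 ± 0.29 (95% interval -1.45 to -0.16, unadjusted p = 0.0194, adjusted p = 0.492). Under LPS it stood at 0.049 ± 0.29 (95% interval -0.60 to 0.69), where 1 array per genotype was not well above background. Ctsd was at -0.30 ± 0.12 under PBS (95% interval -0.57 to -0.031, adjusted p = 0.622), also without overlap, and at -0.069 ± 0.12 under LPS. Atp6v1d, a central stalk subunit of V1, had log2 levels of 5.28, 5.69 and 5.70 in ERRα-/- LPS cells against 5.08, 4.98 and 5.10 in ERRα+/+ LPS cells, and 5.50, 5.42 and 5.44 in ERRα-/- PBS cells against 5.86, 5.12 and 5.47 in ERRα+/+ PBS cells. The groups were apart under LPS alone, where the difference was 0.50 ± 0.19 (95% interval 0.074 to 0.93, adjusted p = 0.631). Ctsc was at 0.73 ± 0.49 under PBS (95% interval -0.35 to 1.80) and 0.59 ± 0.49 under LPS (95% interval -0.48 to 1.67), positive on both slides but with overlapping groups. Genotypes did not overlap under PBS for 4 members, Ctsd, Gla, Neu1 and Tpcn2, against 14.2% of all genes. Under LPS they did not for 3, Ctsz, Npc2 and Atp6v1d, against 12%.

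Within slide 2, where each group has 2 arrays, some genotype differences passed. Under PBS 1 member was lower in ERRα-/- cells, Tpcn2 (-0.88, adjusted p = 0.0433), against 4.88% of all genes. Under LPS 2 were higher, against 8.15%: Atp6v1d (0.65, adjusted p = 0.0209) and Lamp2 (0.56, adjusted p = 0.0137). Averaged over treatments 6 were higher, against 9.9%: Atp6v1d, Ctsc, Gla, Lamp2, Neu1 and Npc2, at 0.40, 0.43, 0.27, 0.25, 0.21 and 0.43 log2 units. On slide 1 the same averaged differences were -0.079, 1.12, 0.052, -0.058, 0.14 and 0.22, so those of Atp6v1d and Lamp2 were negative there. With slide as a block 1 member was called higher averaged over treatments, Ctsc (0.66, adjusted p = 0.0333), against 1.66% of all genes, and with the replicate block its adjusted p was 0.0520.

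Transcription factors known to act on lysosomal genes, activators and repressors alike, changed with LPS in different directions. Tfeb encodes the best studied of them, Tfe3, Mitf and Tfec its relatives of the MiT family, and Max the common dimer partner of Myc. Of 9 factor genes 5 were called higher and 2 lower in ERRα-/- cells, against 25.1% and 25.3% of all genes. In ERRα+/+ cells 5 were called higher and 1 lower, against 22.2% and 23.7%. Tfeb had log2 levels of 0.49, -1.52 and -1.39 in ERRα-/- LPS cells against 1.87, 1.36 and 1.45 in ERRα-/- PBS cells, and 0.71, -1.05 and -0.96 in ERRα+/+ LPS cells against 2.36, 1.55 and 1.55 in ERRα+/+ PBS cells. LPS arrays were below PBS arrays of the same genotype throughout. The difference was -2.37 ± 0.58 in ERRα-/- cells (adjusted p = 0.00644) and -2.25 ± 0.58 in ERRα+/+ cells (adjusted p = 0.00917). Tfec had log2 levels of 3.35, 3.32 and 3.09 in ERRα-/- LPS cells against 0.57, 0.48 and 0.44 in ERRα-/- PBS cells, and 4.04, 3.63 and 3.70 in ERRα+/+ LPS cells against 0.24, 0.78 and 0.71 in ERRα+/+ PBS cells. All LPS arrays were above all PBS arrays. The difference was 2.75 ± 0.18 in ERRα-/- cells (adjusted p = 3.42e-06) and 3.21 ± 0.18 in ERRα+/+ cells (adjusted p = 1.35e-06). Max was 1.92 ± 0.24 in ERRα-/- cells (adjusted p = 0.000156) and 1.26 ± 0.24 in ERRα+/+ cells (adjusted p = 0.00189). Tfe3 and Mitf, added as the rest of the family after their values were seen, were at 0.33 ± 0.12 and 1.05 ± 0.18 in ERRα-/- cells (adjusted p = 0.0411 and 0.000894) and at 0.32 ± 0.12 and 0.69 ± 0.18 in ERRα+/+ cells (adjusted p = 0.0468 and 0.00938). The calls of Tfe3 and Mitf were not examined under quantile normalization, normexp or with an array left out. Those of Tfe3 lay close to the threshold.

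**Figure D5:**
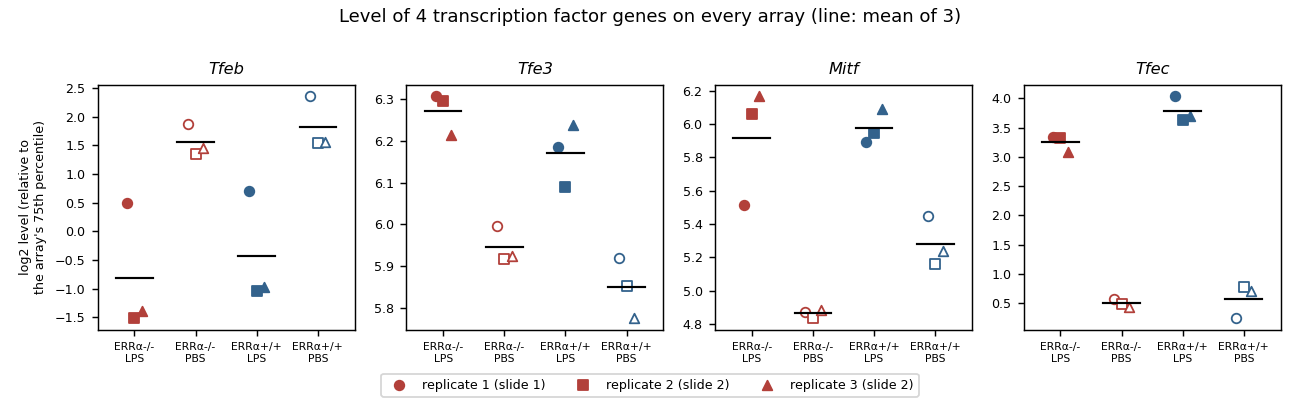
The log2 level relative to the array's 75th percentile (y axis, scaled to each gene) of Tfeb, Tfe3, Mitf and Tfec on every array of the 4 groups (x axis), with ERRα-/- cells in red and ERRα+/+ cells in blue, LPS filled and PBS open, replicates by shape and the group mean as a line. Tfeb lies lower and Tfe3, Mitf and Tfec higher on the LPS arrays than on the PBS arrays of the same genotype.

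Genes of the wider lysosomal and endosomal system were read from 11 lists, of which 201 of 212 genes were tested. In ERRα-/- cells 43 were called higher with LPS (21.4%) and 56 lower (27.9%), against 25.1% and 25.3% of all genes. In ERRα+/+ cells 34 were higher (16.9%) and 57 lower (28.4%), against 22.2% and 23.7%. In all, 49.3% and 45.3% were called, close to the 50.4% and 45.9% of all genes. The same shares of all genes stand beside the counts of every wider list below. Among 17 other pump subunits and assembly factors 3 were higher and 3 lower in each genotype. Ncoa7, whose product binds the V-ATPase, was at 1.77 ± 0.20 in ERRα-/- cells and 1.45 ± 0.20 in ERRα+/+ cells. Rogdi, an assembly factor, was at -1.51 ± 0.17 and -1.38 ± 0.17. Atp6v0d2, the V0 subunit isoform of osteoclasts and macrophages, was at -1.45 ± 0.50 and -1.91 ± 0.50, and its call in ERRα-/- cells ended without ERRα-/- LPS replicate 2 or 3 or ERRα-/- PBS replicate 1 (adjusted p 0.0960 to 0.122). Among 13 other proteases 2 were higher and 3 lower in ERRα-/- cells, and 1 higher and 3 lower in ERRα+/+ cells. Prcp, a carboxypeptidase, was at -1.02 ± 0.33 in ERRα-/- cells, a call lost without ERRα-/- LPS replicate 1 or ERRα-/- PBS replicate 2 or 3 (adjusted p 0.0760 to 0.0936), and at -1.46 ± 0.33 in ERRα+/+ cells. Ctsw, a cathepsin of killer lymphocytes, passed in ERRα-/- cells (1.42 ± 0.51, adjusted p = 0.0385), a call lost without ERRα-/- LPS replicate 1, 2 or 3, ERRα-/- PBS replicate 2 or 3, ERRα+/+ LPS replicate 2 or 3 or ERRα+/+ PBS replicate 3 (adjusted p 0.0512 to 0.149). It stood at 0.60 ± 0.51 in ERRα+/+ cells (adjusted p = 0.356). Ctse, an aspartic protease of endosomes, passed in ERRα+/+ cells (-1.07 ± 0.40, adjusted p = 0.0495), a call lost without ERRα-/- LPS replicate 1, 2 or 3, ERRα-/- PBS replicate 1, 2 or 3, ERRα+/+ LPS replicate 3 or ERRα+/+ PBS replicate 1, 2 or 3 (adjusted p 0.0561 to 0.118). The size of the Ctse difference rested on ERRα+/+ LPS replicate 3, without which it was -0.46. Normexp gave -0.24 (adjusted p = 0.167), but its offset pulls differences of such dim probes towards 0. It stood at -0.79 ± 0.40 in ERRα-/- cells (adjusted p = 0.125).

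Inhibitors of cathepsins included the steepest riser of these lists after Acod1. Cst7 encodes cystatin F, an inhibitor that is taken into lysosomes and acts on cathepsin C. It was at 5.21 ± 0.43 in ERRα-/- cells (adjusted p = 1.39e-05) and 5.11 ± 0.43 in ERRα+/+ cells (adjusted p = 1.33e-05), and Ctsc, described above, rose on the same arrays. In each genotype 3 of 11 inhibitor genes were higher and 1 lower. Stfa3 and Stfa1, stefin A genes of a multigene family, whose copies a probe may not tell apart, were each called in 1 genotype. Stfa3, well above background on 1 of 3 PBS arrays in each genotype, was at 2.78 ± 0.80 in ERRα-/- cells, a call lost without ERRα-/- PBS replicate 2 or 3 (adjusted p 0.0548 to 0.0594), and 1.69 ± 0.80 in ERRα+/+ cells (adjusted p = 0.108, and 0.0210 with the replicate block). Stfa1, not well above background on any ERRα+/+ PBS array, was at 1.53 ± 0.85 in ERRα-/- cells (adjusted p = 0.158, and 0.0496 with the replicate block) and at least 2.23-fold higher with LPS in ERRα+/+ cells (adjusted p = 0.0275), a call lost without ERRα+/+ LPS replicate 3 or ERRα+/+ PBS replicate 2 or 3 (adjusted p 0.0758 to 0.103). That bound belongs to the main processing. Normexp ended the ERRα+/+ call of Stfa1 (0.47, adjusted p = 0.0743) and called it higher in ERRα-/- cells instead (0.67, adjusted p = 0.0157).

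Ctla2a, a propeptide-like inhibitor of cathepsin L, was the 1 gene of the 201 called between genotypes (limma), and this in the average over treatments. With the replicate block 3 of the 201 were called under PBS, against 1.47% of all genes, 2 under LPS, against 1.01%, and 8 in the average, against 3.8%. They were Atp6v0d2, Lamtor2 and Ctla2a under PBS, Ctla2a and Ctla2b under LPS, and in the average these 4 with Napsa, Hgsnat, Igf2r and Gpr137b. The log2 levels of Ctla2a were 2.92, 2.75 and 2.79 in ERRα-/- LPS cells against 4.16, 4.04 and 3.90 in ERRα+/+ LPS cells, and 2.80, 2.42 and 2.51 in ERRα-/- PBS cells against 4.34, 3.45 and 3.18 in ERRα+/+ PBS cells. Each ERRα-/- array was below the ERRα+/+ array of its treatment and replicate number. The averaged difference was -1.15 ± 0.18 (adjusted p = 0.0131), with -1.39 on slide 1 and -1.02 on slide 2. Normexp ended the call (-1.01, adjusted p = 0.0551). Ctla2b, a close copy whose probe may share signal, was at -0.63 ± 0.17 (adjusted p = 0.130, and 0.00349 with the replicate block).

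Of 21 other hydrolases of sugars and sulfates 1 was higher and 8 lower with LPS in ERRα-/- cells, where 25.1% of all genes were higher and 25.3% lower. In ERRα+/+ cells 0 were higher and 7 lower, where 22.2% of all genes were higher and 23.7% lower. The list's median differences were -0.57 in ERRα-/- cells and -0.54 in ERRα+/+ cells. Hyal1, a hyaluronidase, was not well above background on any ERRα-/- LPS array, where it was at least 6.80-fold lower with LPS (adjusted p = 0.00868), and was called lower in ERRα+/+ cells (adjusted p = 0.00926), where 1 of 3 LPS arrays was above background and no size is given. Such a bound sets the mean of the brighter group against the lowest signal called above background on each dim array. Arsg, a sulfatase, was at -2.51 ± 0.27 in ERRα-/- cells and -2.53 ± 0.27 in ERRα+/+ cells, and Manba, the β-mannosidase, at -2.08 ± 0.40 and -1.94 ± 0.40. Of 21 lipid-handling genes 5 were higher and 9 lower in ERRα-/- cells, and 4 higher and 10 lower in ERRα+/+ cells. Pla2g15, the lysosomal phospholipase A2, was at -2.82 ± 0.27 in ERRα-/- cells and -2.36 ± 0.27 in ERRα+/+ cells. Smpdl3b, a membrane-anchored phosphodiesterase, was at 2.00 ± 0.38 and 2.90 ± 0.38. Acp5, the tartrate-resistant acid phosphatase, was at 1.92 ± 0.59 and 2.00 ± 0.59, calls lost in ERRα-/- cells without ERRα-/- LPS replicate 2 or 3 or ERRα-/- PBS replicate 1 (adjusted p 0.0650 to 0.0802) and in ERRα+/+ cells without ERRα+/+ LPS replicate 2 or 3 or ERRα+/+ PBS replicate 2 or 3 (adjusted p 0.0501 to 0.0768). Among 31 other membrane proteins 9 were higher and 12 lower in ERRα-/- cells, and 6 higher and 12 lower in ERRα+/+ cells. Slc37a2, a sugar phosphate carrier, was at -2.58 ± 0.21 in ERRα-/- cells and -2.78 ± 0.21 in ERRα+/+ cells, Ctns, the cystine exporter, at -2.41 ± 0.45 and -2.28 ± 0.45, and Slc15a3, a histidine and peptide carrier, at 2.60 ± 0.36 and 2.15 ± 0.36.

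Genes that deliver enzymes and vesicles to lysosomes moved both ways. Of 18 genes of the mannose 6-phosphate tag and sorting 5 were higher and 3 lower in ERRα-/- cells, and 4 higher and 5 lower in ERRα+/+ cells. Sort1, the sorting receptor sortilin, was at -2.04 ± 0.50 in ERRα-/- cells and -1.81 ± 0.50 in ERRα+/+ cells, of which the ERRα+/+ call was lost without ERRα+/+ LPS replicate 2 or 3 (adjusted p 0.0577 to 0.0578). Gga2, a clathrin adaptor, was at -1.51 ± 0.37 and -1.32 ± 0.37, the ERRα+/+ call ending without ERRα+/+ LPS replicate 2 or 3 or ERRα+/+ PBS replicate 1 (adjusted p 0.0529 to 0.0646). Cln6, an ER protein needed for the export of lysosomal enzymes and listed among the lipid genes too, was at -1.47 ± 0.21 and -1.32 ± 0.21. Of 26 fusion genes 5 were higher and 6 lower in ERRα-/- cells, and 3 higher and 6 lower in ERRα+/+ cells. Rab5a, the early endosome GTPase, was at 1.16 ± 0.28 in ERRα-/- cells and 0.97 ± 0.28 in ERRα+/+ cells, the ERRα+/+ call ending without ERRα+/+ LPS replicate 2 or 3 (adjusted p 0.0621 to 0.0649). Vps39, a HOPS tethering subunit, was at -1.26 ± 0.43 in ERRα-/- cells, a call lost without ERRα-/- LPS replicate 2 or 3 or ERRα-/- PBS replicate 1 (adjusted p 0.0835 to 0.119). In ERRα+/+ cells it was at -1.27 ± 0.43, a call lost without ERRα+/+ LPS replicate 2 or 3 or ERRα+/+ PBS replicate 1 or 3 (adjusted p 0.0508 to 0.123). Normexp ended both Vps39 calls (adjusted p = 0.0521 in ERRα-/- cells and 0.0770 in ERRα+/+ cells). Plekhm1, an adaptor of Rab7 and HOPS, passed in ERRα-/- cells (-1.21 ± 0.44, adjusted p = 0.0392), a call lost without ERRα-/- LPS replicate 2 or 3, ERRα-/- PBS replicate 1, 2 or 3 or ERRα+/+ PBS replicate 3 (adjusted p 0.0525 to 0.134), and stood at -0.91 ± 0.44 in ERRα+/+ cells (adjusted p = 0.110, and 0.00344 with the replicate block).

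Nutrient sensing genes at the lysosome govern mTORC1 on its surface. Of 26 such genes 2 were higher and 9 lower with LPS in each genotype, beside 25.3% of all genes lower in ERRα-/- cells and 23.7% in ERRα+/+ cells, and the list's medians were -0.43 and -0.44. Sesn1, a sestrin that restrains mTORC1, was at -4.63 ± 0.71 in ERRα-/- cells and -3.48 ± 0.71 in ERRα+/+ cells. Castor1, the arginine sensor, was not well above background on any LPS array and was at least 1.31-fold lower with LPS in ERRα-/- cells and 1.76-fold in ERRα+/+ cells (adjusted p = 0.000646 and 0.00114), calls that normexp ended (-0.22 in ERRα-/- cells, adjusted p = 0.395, and -0.45 in ERRα+/+ cells, adjusted p = 0.0966). Flcn, folliculin, an activator of the Rag GTPases, was at -1.30 ± 0.21 and -1.61 ± 0.21. Of 9 immune effectors tied to lysosomes 3 were higher and 1 lower in each genotype. Acod1, which makes itaconate, was at 9.22 ± 0.74 in ERRα-/- cells and 11.58 ± 0.74 in ERRα+/+ cells. Its log2 levels in ERRα-/- PBS cells were 3.11, -0.47 and -0.11, so replicate 1 made the ERRα-/- difference smaller. The response to LPS differed between genotypes by the threshold for 0 of these effectors. Cybb, the catalytic subunit of the phagocyte NADPH oxidase, was at 1.89 ± 0.19 and 2.30 ± 0.19, and Gpr65, a proton-sensing receptor, at -2.01 ± 0.44 and -1.90 ± 0.44.

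Markers of other cells were measured beside these genes. All 9 macrophage markers on the array were well above background on every array. The log2 of their summed signal, relative to the 75th percentile, was 10.7 to 11.0 in ERRα-/- LPS cells, 10.2 to 10.6 in ERRα-/- PBS cells, 10.6 to 10.9 in ERRα+/+ LPS cells and 9.73 to 10.5 in ERRα+/+ PBS cells. Of the other lists, 11 of 12 neutrophil, 7 of 9 dendritic cell, 6 of 11 lymphocyte, 8 of 9 osteoclast, 6 of 9 mast cell and basophil, and 8 of 10 stromal and endothelial markers were tested.

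The summed mast cell and basophil level moved most with LPS. It was 3.87 to 5.84 in ERRα-/- LPS cells against 1.89 to 2.26 in ERRα-/- PBS cells, and 3.07 to 5.76 in ERRα+/+ LPS cells against 2.24 to 2.67 in ERRα+/+ PBS cells. The sum followed Hdc, which makes histamine and was the brightest gene of that list on every LPS array. Hdc rose (5.40 in ERRα-/- cells and 4.32 in ERRα+/+ cells) and Il1rl1, an interleukin 33 receptor, fell (-1.99 and -2.43). The list's LPS differences were positive for 4 of 6 genes in ERRα-/- cells and 2 of 6 in ERRα+/+ cells. Fcer1a, Ms4a2 and Mcpt4 were not well above background on all 3 arrays of any group. Of the 6 tested genes of that list, 5 were in ERRα+/+ LPS cells and 6 in each other group. The neutrophil level was 8.33 to 8.96 in ERRα-/- LPS cells against 7.87 to 8.17 in ERRα-/- PBS cells, and 8.06 to 9.07 in ERRα+/+ LPS cells against 8.27 to 8.80 in ERRα+/+ PBS cells. That sum was mostly S100a9 and S100a8, the brightest genes of the list. With LPS 7 of the 11 neutrophil markers were negative in ERRα-/- cells (median -0.30, 1 called higher, 0 lower). In ERRα+/+ cells 8 of 11 were negative (median -0.60, 0 called higher, 2 lower). The dendritic cell level was 8.02 to 8.48 in ERRα-/- LPS cells against 7.83 to 7.93 in ERRα-/- PBS cells, and 7.90 to 8.36 in ERRα+/+ LPS cells against 6.09 to 7.67 in ERRα+/+ PBS cells. This sum was mostly Siglech. With LPS 5 of the 7 dendritic cell markers were positive in ERRα-/- cells (median 0.98) and 4 of 7 in ERRα+/+ cells (median 0.23). Osteoclast markers, some of which are lysosomal genes, summed to 6.46 to 7.70 in ERRα-/- LPS cells against 6.24 to 6.71 in ERRα-/- PBS cells, and to 6.85 to 8.11 in ERRα+/+ LPS cells against 6.36 to 7.76 in ERRα+/+ PBS cells. The lymphocyte level was 3.38 to 4.54 in ERRα-/- LPS cells against 4.22 to 4.43 in ERRα-/- PBS cells, and 3.49 to 3.70 in ERRα+/+ LPS cells against 3.75 to 4.58 in ERRα+/+ PBS cells. Cd79a, Cd3g, Cd8a, Ncr1 and Klrb1c were not well above background on all 3 arrays of any group. The 6 tested lymphocyte markers included Cd79b, Cd3e and Cd4, also genes of B and T cells. On all 3 arrays, 6 of the 6 were well above background in ERRα+/+ PBS cells and 5 in each other group.

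Between genotypes no marker of these lists was called under PBS or under LPS (limma), and in the average 1 was, the stromal gene Acta2 (-1.03 ± 0.21, adjusted p = 0.0459). Under PBS the differences between ERRα-/- and ERRα+/+ cells were negative for all 8 stromal and endothelial markers (median -1.14, 6 at an unadjusted p under 0.05), all 11 neutrophil markers (median -0.69, 3) and all 6 mast cell and basophil markers (median -0.71, 2), and for 7 of 8 osteoclast markers (median -0.58, 0). Under LPS they were negative for 7 of 8, 9 of 11, 4 of 6 and 7 of 8 markers of the same lists, with medians of -0.45, -0.21, -0.073 and -0.37. Over all 13113 genes 7132 were negative under PBS and 6687 under LPS. Macrophage markers were positive for 6 of 9 under PBS (median 0.16, 1 at an unadjusted p under 0.05) and 9 of 9 under LPS (median 0.17). Dendritic cell and lymphocyte markers were negative for 5 of 7 and 4 of 6 under PBS, and for 1 of 7 and 1 of 6 under LPS. The summed neutrophil ranges given above did not overlap between genotypes under PBS. The summed stromal and endothelial level was 2.21 to 2.41 in ERRα-/- PBS cells against 2.92 to 3.84 in ERRα+/+ PBS cells. Under LPS its ranges overlapped, at 2.95 to 3.92 in ERRα-/- cells against 3.83 to 4.30 in ERRα+/+ cells, and 1 of its genes, Pdgfrb, rose with LPS by 5.29 in ERRα-/- cells and 5.35 in ERRα+/+ cells. The part of these markers in the lysosomal differences was not tested.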

How the data were processed

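RNA of 12 macrophage samples was read on 1-colour (Cy3) Agilent arrays of 62976 spots. The deposited spot intensity was background-subtracted and detrended by Agilent Feature Extraction, version 11.5.1.1 per the file headers and 9.3.2.1 per the submitters' processing notes. The authors' deposited series table holds the same intensities at every spot, with no normalization between arrays, and served as an alternative.

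From these, spots of a probe were averaged, log2 was taken and each array's 75th percentile over non-control probes (289 to 610) was subtracted. By replicate that percentile was 501, 289 and 296 on ERRα-/- LPS arrays against 610, 484 and 417 on ERRα-/- PBS arrays. On ERRα+/+ arrays it was 527, 361 and 319 with LPS against 588, 352 and 346 with PBS. Probes were named through RefSeq transcript accessions, which named 27509 of 55681 probes. A probe stayed in when some group had it well above background on each of its 3 arrays, and the brightest probe stood for its gene. Between 45.3% and 56.7% of probes were well above background on an array, none was saturated, and the small number of arrays limits the precision.

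limma 3.58.1 (R 4.3.3) fitted 4 group means over 13113 genes, two-sided, with Benjamini-Hochberg adjustment and a threshold of 0.05. Every adjusted p, and every standard error, comes from this limma model or from a named alternative of it. The code was tested on simulated data. Alternatives were quantile normalization, normexp (offset 50, on median spot signals), no filter, the mean of a gene's probes, slide as a block, slide 2 alone, the replicate block, the deposited series table, leaving out non-uniform spots, and leaving out each array. Same-numbered arrays deviated together from their group means (18 pairs, r from 0.143 to 0.783), while arrays of different number correlated at 0.129 to 0.553 within slide 2 and at -0.710 to -0.171 across slides. The replicate block treats same-numbered arrays as paired. The range within slide 2 overlapped that of same-numbered arrays, and replicate 1 is also slide 1. These values thus do not separate pairing by number from a shared slide.

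Members with their values in every sample were the called ones with the largest LPS difference in each role group, up to 4, or 2 with the smallest where none was called. Of each wider list up to 3 called genes were named, and any called between genotypes. Lamp2, Atp6v1d, Tfe3 and Mitf lie outside this rule and were added after their values were seen. The members and lists were chosen with earlier results of these data known. Cd68 was not analysed here.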

Additional observations from a re-analysis of the deposited data

How the results depend on the processing

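Among the members' LPS differences the 1 that changed sign after being called was Atp6v0b under quantile normalization, at -0.050 in ERRα-/- cells and -0.084 in ERRα+/+ cells. Without a filter on dim probes 9 members were called in ERRα-/- cells (all genes, 27.7%) and 10 in ERRα+/+ cells (all genes, 24.8%), with 20887 genes tested in place of 13113. On slide 2 alone 27 members were called for LPS in ERRα-/- cells (all genes, 73.7%). Between ERRα-/- and ERRα+/+ cells 1 was lower there under PBS (all genes, 4.88%). Under LPS 2 were higher (all genes, 8.15%), and averaged over treatments 6 were higher (all genes, 9.9%). Slide as a block gave 1 higher for the average (all genes, 1.66%). The cause was not tested.

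With the replicate block, which treats arrays of the same number as paired, 19 members were called for LPS in ERRα-/- cells (all genes, 63.7%) and 22 in ERRα+/+ cells (all genes, 60.5%). In each comparison of genotypes it called 0 members (all genes, 1.47% under PBS, 1.01% under LPS and 3.8% averaged). Calls it added are given beside their genes above, and it changed no other call of a member. Leaving out 1 array gave 6 to 16 called members in ERRα-/- cells (all genes, 39.1% to 55.1%), the fewest without ERRα-/- LPS replicate 2 or ERRα-/- PBS replicate 3. It gave 7 to 17 in ERRα+/+ cells (all genes, 34.6% to 51%), the fewest without ERRα+/+ LPS replicate 3. Fewer arrays alone can lower such counts. No array left out brought a member past the threshold between genotypes. Under all settings and with each array left out, the calls of Atp6v0a1, Ctsc, Gusb and Tpcn1 stood in ERRα-/- cells, and those of Atp6v0a1, Atp6v1a, Ctsc, Mcoln1, Tpcn1 and Tpcn2 in ERRα+/+ cells. The deposited series table, which holds the same intensities, and leaving out non-uniform spots changed no call.

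Signal over background limited Tpcn2, and among the wider genes Hyal1, Castor1, Ctse, Ctsw, Stfa1 and Stfa3. Batch is limited to what the slides show, since replicate 1 and slide 1 cannot be told apart.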
